A study of Mus musculus with 5 samples.

Results

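Dusp1, Dusp4, Dusp5, Dusp6, Dusp10, Spry1, Spry2, Spry4, Spred1 and Spred2 are inducible inhibitors of MAP kinase signalling, and the binding of mJunB and the H3K27ac mark around them were examined in mouse muscle stem cells (MuSCs). These 10 genes were taken as a list of known feedback inhibitors out of 21951 protein-coding genes in the GENCODE M21 annotation. The list was chosen with earlier results of these data known. Every mJunB or H3K27ac peak within 50 kb of any annotated transcription start site (TSS) of a member was assigned to it. A peak within 3 kb of a TSS was called promoter and a peak farther away distal. Overlapping or touching mJunB peaks of different libraries were merged into regions, and a library is said to hold a region when it has a peak in it. Of 18884 mJunB regions in all, 36 lay within 50 kb of the 10 genes, made up of 15, 14 and 11 peaks of young replicates 1, 2 and 3, and 29 aged peaks.

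CUT&RUN-seq, in which an antibody on permeabilised cells guides a nuclease to cut out the DNA beside its target, was performed on MuSCs freshly sorted from mouse muscle. The mJunB data comprised 3 libraries from young mice, given as biological replicates, and 1 library from aged mice, with no treatment or genetic change in the sample labels, although the series' design text speaks of mice given DMSO or MVC and not of age. H3K27ac, the acetylated histone found at promoters and enhancers in use, was mapped in 1 more library, and the age of its mice is not given in the sources used here. The labels call it a mouse MuSC library, while the study's methods also tie it to a human epigenome mapping project, so its origin is uncertain and every H3K27ac overlap rests on the labels. With 1 aged library no test between ages could be made, so aged values are set beside the spread of the 3 young libraries, and a peak list from many cells does not tell the share of cells bound from the occupancy in each.

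The mJunB lists differed in length, with 9534, 4884 and 3863 peaks in young replicates 1, 2 and 3, against 14123 aged peaks, and the H3K27ac list held 39865. They had not passed the same threshold: young replicate 1 and the aged library reached down to a −log10 p of 3.01, but young replicates 2 and 3 stopped at 5.33 and 5.22. A peak carries no read count, so the depth behind it is unknown. As a check of the cell type, 5 of 8 MuSC markers had an H3K27ac peak within 3 kb (Vcam1, Itga7, Cdh15, Chrdl2 and Sdc4, but not the defining Pax7, Myf5 or Calcr), against 1 of 4 fibro-adipogenic, 2 of 4 endothelial, 1 of 5 immune and 1 of 4 muscle fibre markers, beside 49.8% of all protein-coding genes. The H3K27ac list had peaks at several MuSC surface genes but lacked a peak at the promoter of Pax7 itself. The markers of other cells with a peak were Dcn, Pecam1, Tek, Csf1r and Myh1. With lists this short beside a background of 49.8%, these counts do not tell the cell type.

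Growth factors and stress activate the MAP kinases ERK, JNK and p38, and the cells answer by making inhibitors of the same pathways. Dual-specificity phosphatases (DUSPs) remove the activating phosphates from MAP kinases in the nucleus or the cytoplasm, while Sprouty and Spred proteins dampen the route from receptor tyrosine kinases through RAS and RAF to ERK. JunB is a subunit of AP-1, the dimeric transcription factor that these kinases induce and activate. In muscle, Sprouty1 is known for its part in the return of MuSCs to quiescence, when FGF signalling has to be held down.

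mJunB peaks lay at the promoters of more of the feedback genes in the aged library than in any young one. Dusp1, Dusp4 and Spred2 had a promoter peak in young replicate 1 (3 of 10, against 11.1% of all protein-coding genes), Dusp1, Dusp10 and Spred2 in young replicate 2 (3 of 10, against 7.79%), and Dusp1 and Spred2 in young replicate 3 (2 of 10, against 5.95%). In the aged library 7 of 10 had one, against 23.9% of all genes: Dusp1, Dusp4, Dusp5, Dusp6, Dusp10, Spred1 and Spred2. No Sprouty gene had a promoter peak in any mJunB library, so 7 of 10 members stood against 25.9% of all genes with a promoter peak in at least 1 library. Dusp1 and Spred2 alone had a promoter peak in all 4 libraries (2 of 10, against 4.4%). With a promoter window of 1 kb instead of 3 kb, 4 members had an aged promoter peak, against 20.9% of all genes, and 2 had one in any young library, against 10.2%.

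Within 50 kb all 10 genes had an mJunB peak in at least 1 library, beside 64.6% of all protein-coding genes. By library there were 7, 7 and 6 of 10 in young replicates 1, 2 and 3, against 40.4%, 27.6% and 23.5%, and 9 of 10 in the aged library, against 58.5%. The share among the members was therefore above the background in every library. Because the list was chosen with earlier results of these data known, this excess is not independent evidence of a trait of these genes. Spry1 was the gene without a peak within 50 kb in the aged library, and Dusp6 and Spry4 had none in any young library.

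The aged list was also the longest, and the higher aged count depended on how the lists were cut. When each list was reduced to its 3863 strongest peaks by −log10 p, promoter peaks were left at 1 of 10 members in young replicate 1 (5.52% of all genes), 2 of 10 in young replicate 2 (6.08%) and 2 of 10 in the aged library (8.83%). The aged promoter peaks that remained were those of Dusp1 and Spred1. Within 50 kb the same reduction left 4, 7 and 5 of 10 members in young replicate 1, young replicate 2 and the aged library, against 22.4%, 23.2% and 27.5%. Dusp1, Dusp5, Spry2 and Spred1 had a peak within 50 kb in all of these reduced lists. Cuts by threshold kept the higher aged promoter count. With a −log10 p of at least 5.33, 6 members had an aged promoter peak and 3 had one in any young library. With a −log10 q of at least 2 these counts were 7 and 3. No share over all genes is given beside them.

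**Figure D1:**
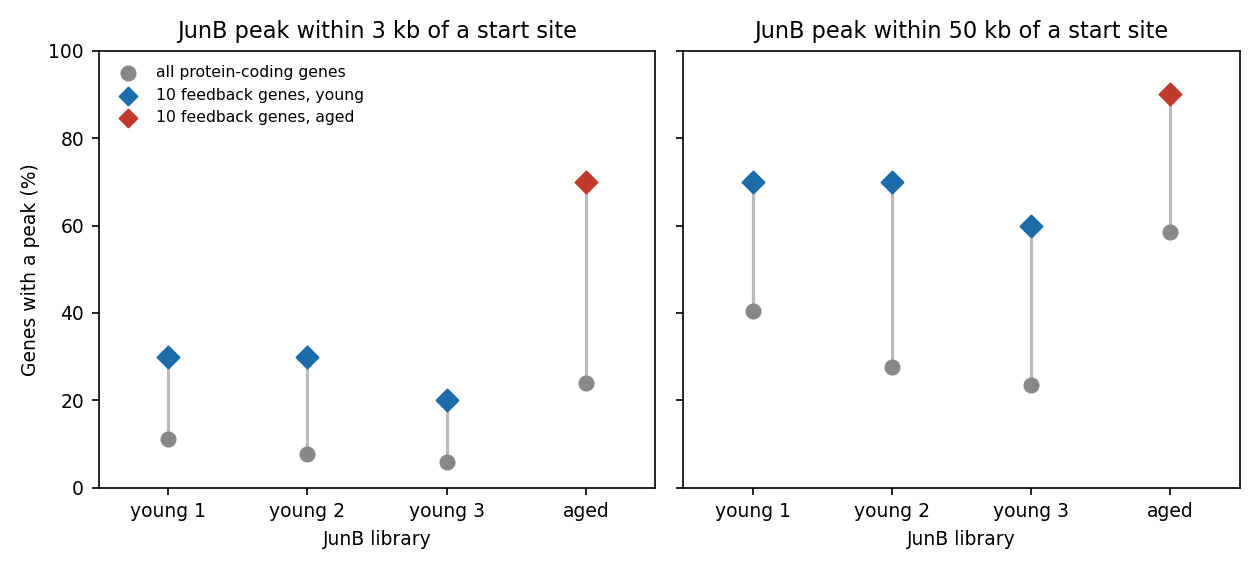
Share of genes (%) with an mJunB peak within 3 kb (left) or 50 kb (right) of a start site in each library, for the 10 feedback genes (diamonds) and all 21951 protein-coding genes (grey circles). The diamonds lie above the circles in every library, and both rise in the aged library, whose list is the longest.

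Of the 36 regions, 8 were held by all 4 libraries (22.2%, exact 95% binomial interval 10.1 to 39.2, against 14.4% of the 13409 regions within 50 kb of any protein-coding TSS). Another 17 were held by the aged library alone (47.2%, interval 30.4 to 64.5, against 46.4%) and 7 by young libraries alone (19.4%, interval 8.19 to 36.0, against 21.6%). The remaining 4 were held by the aged library together with 1 or 2 young libraries. When young replicate 1 was left out, the young-alone regions numbered 3. These shares were near those of all regions, and the intervals, which cover counting error of regions only, include the background in each case. By number of libraries, 22 of the 36 were held by 1, 4 by 2 and 2 by 3, with no share over all regions to set beside these counts.

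The 8 shared regions belonged to 5 genes, with 4 at Dusp1 and 1 each at Dusp5, Spry2, Spred1 and Spred2. Having at least 1 such region within 50 kb was thus a property of 5 of 10 members, against 17.2% of all protein-coding genes. Dusp4, Dusp6, Dusp10, Spry1 and Spry4 had none. In all 8 cases the member was the nearest protein-coding gene, as it was for 30 of the 36 regions. The exceptions were 4 upstream regions of Dusp1 nearest to a start of Ergic1, 1 of Dusp6 nearest to Poc1b and 1 of Spry1 nearest to Spata5. Other genes were sparse here: the windows of Dusp1, Dusp4 and Dusp10 each held 1 other protein-coding gene, and the rest none. No share over all genes is given beside these counts of nearest genes.

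**Figure D2:**
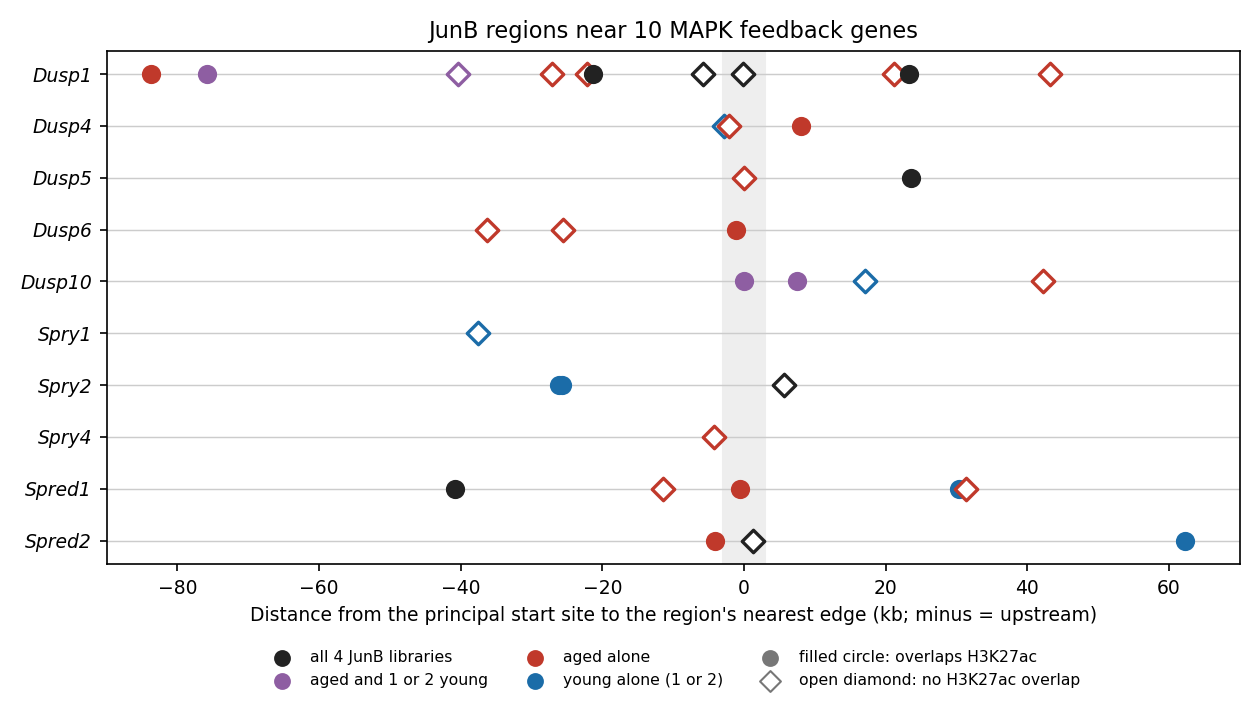
The 36 mJunB regions by their distance in kb from the principal start site of each gene (grey band: 3 kb to each side), coloured by the libraries that hold them, with filled circles where an H3K27ac peak overlaps and open diamonds where none does. Dusp1 has 4 black symbols (all 4 libraries), while the regions of Dusp6 and Spry4 are all red (aged library alone).

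The sequences below are the 151 bases around the median summit of each of these 8 regions, shown because mJunB peaks of both ages met there, read from the forward strand of GRCm38, the assembly that mm10 names. Capitals mark an AP-1 site (TGACTCA or TGAGTCA, which are reverse complements of each other) or a CArG box, the element bound by serum response factor. Distances are from the principal TSS to the near edge of the region. The summits of all 4 libraries fall inside the printed stretch at 4 of the regions (Dusp1 at 21293 and 23258 bp, Dusp5 and Spry2), but only 3 of 4 do at the Dusp1 promoter, 2 of 4 at Spred2, 2 of 5 at Spred1 and 0 of 4 at the Dusp1 region 5843 bp upstream, where the median lies between separate summits.
Dusp1, 105 bp upstream, chr17:26508712-26508862: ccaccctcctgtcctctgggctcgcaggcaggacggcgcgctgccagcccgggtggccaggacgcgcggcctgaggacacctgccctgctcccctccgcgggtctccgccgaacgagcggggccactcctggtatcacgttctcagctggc
Dusp1, 5843 bp upstream, chr17:26514724-26514874: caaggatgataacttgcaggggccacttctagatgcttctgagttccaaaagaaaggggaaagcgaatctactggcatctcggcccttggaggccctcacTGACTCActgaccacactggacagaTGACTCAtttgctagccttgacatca
Dusp1, 21293 bp upstream, chr17:26529919-26530069: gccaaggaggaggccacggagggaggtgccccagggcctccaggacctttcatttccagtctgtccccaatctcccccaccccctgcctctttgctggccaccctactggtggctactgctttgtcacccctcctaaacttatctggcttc
Dusp1, 23258 bp downstream, chr17:26484562-26484712: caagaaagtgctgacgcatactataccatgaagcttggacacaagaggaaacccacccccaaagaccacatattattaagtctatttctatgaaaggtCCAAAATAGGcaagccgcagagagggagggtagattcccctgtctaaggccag
Dusp5, 23567 bp downstream, chr19:53552761-53552911: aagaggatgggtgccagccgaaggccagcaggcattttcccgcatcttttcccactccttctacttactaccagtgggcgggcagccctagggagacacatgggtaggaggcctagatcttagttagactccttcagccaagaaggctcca
Spry2, 5660 bp downstream, chr14:105890898-105891048: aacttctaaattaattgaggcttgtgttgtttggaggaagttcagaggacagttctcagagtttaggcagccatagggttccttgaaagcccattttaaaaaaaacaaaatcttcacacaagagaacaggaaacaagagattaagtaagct
Spred1, 40859 bp upstream, chr2:117080132-117080282: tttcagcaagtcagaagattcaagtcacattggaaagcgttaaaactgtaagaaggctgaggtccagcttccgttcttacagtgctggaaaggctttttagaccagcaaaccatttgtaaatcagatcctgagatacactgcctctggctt
Spred2, 1244 bp downstream, chr11:19926051-19926201: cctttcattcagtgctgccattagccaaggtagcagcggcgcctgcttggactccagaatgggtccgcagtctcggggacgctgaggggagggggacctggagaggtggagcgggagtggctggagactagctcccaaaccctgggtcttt

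Dusp1 (ENSMUSG00000024190.7, chromosome 17, minus strand, principal TSS at 26508519) encodes a nuclear phosphatase of p38, JNK and ERK that is induced within minutes of stress or growth factor stimulation. It had 11 mJunB regions within 50 kb of its starts, a number reached by 54 protein-coding genes (0.246%), and its 4 regions held by all 4 libraries were matched or exceeded at 0.159% of protein-coding genes, 35 in number. The window of Dusp1 is wide, since the annotation also gives starts at 26561499, which is 10 bp from a start of Ergic1, and at 26562128, which is 53609 bp upstream of the principal one. Counted from principal starts alone, Dusp1 kept 9 of its regions and all 4 of the shared ones, and 0.132% of genes had as many shared regions. The regions between the upstream and the principal start are annotated as intronic for this reason.

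At the Dusp1 promoter (chr17:26508624-26509150, 105 bp upstream of the principal TSS) the fold enrichment of the summit over the local background was 6.29, 15.3 and 14.7 in young replicates 1, 2 and 3, against 9.33 in the aged library. Young replicate 1 was low and the other two young libraries were high, so the aged value lay inside the young range (12.1 ± 5.03, mean ± SD, n = 3). By −log10 p the aged peak stood above 98% of the peaks in its own list, and those of young replicates 1, 2 and 3 above 63%, 93.7% and 92.1% of theirs. With a −log10 p of 29.8 it was the strongest aged peak at the 10 genes. The summit in young replicate 1 lay farther upstream than the rest, and the summits spread over 172 bp. The cAMP response element TGACGTCA was found 175 bp from the median summit, outside the region.

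The other 3 shared regions flanked the gene. The region 5843 bp upstream (chr17:26514362-26515175) had fold enrichments of 8.3, 5.73 and 7.36 in the young libraries, against 4.66 in the aged one, and the region 21293 bp upstream (chr17:26529812-26530531) had 11.8, 12.8 and 10.5 against 7.03. Downstream, beyond the 3′ end of the gene and in an intron of the transcript AC122252.2, the region at 23258 bp (chr17:26484280-26485261) had 12.3, 12.7 and 15.1 against 7.93. In each of these 3 regions the aged value lay below every young value, by more than the young SD of 1.3, 1.17 and 1.51 from the young mean. The summits of the 2 outer regions fell within 38 and 45 bp of each other across the 4 libraries, whereas those of the region at 5843 bp spread over 441 bp.

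The Dusp1 sequences differed in the letters they held. The region at 5843 bp carried 2 AP-1 sites, both in the sequence printed above, the nearer 28 bp from the median summit, but in none of the 4 libraries did a site lie within 50 bp of that library's own summit. The downstream region carried a CArG box, 28 bp from its median summit and within 50 bp of the summit in each library. No AP-1, CRE or CArG match was found in the promoter region, which says only that these letters were absent from that window. Of the other 7 Dusp1 regions, 5 were held by the aged library alone, 1 by the aged library and young replicate 3, and 1 by the aged library and young replicates 2 and 3. The fold enrichments of the 5 aged-alone peaks ran from 3.83 to 5.2, below the aged values at 3 of the 4 shared regions and on both sides of the 4.66 at the region 5843 bp upstream.

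H3K27ac lay at some of these regions and not at others. Peaks of the mark overlapped the region 21293 bp upstream (−log10 p 13.4, fold enrichment 3.3) and the downstream region (−log10 p 12.8, fold enrichment 2.99). Neither the promoter region nor the region at 5843 bp was overlapped, and the nearest H3K27ac peak to the principal TSS was 4556 bp away. The 2 H3K27ac peaks that count as promoter peaks of Dusp1 lay at its upstream starts, next to Ergic1, and neither was overlapped by an mJunB peak. Within 3 kb of a principal start, then, Dusp1 had mJunB in all 4 libraries and no H3K27ac peak.

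**Figure D3:**
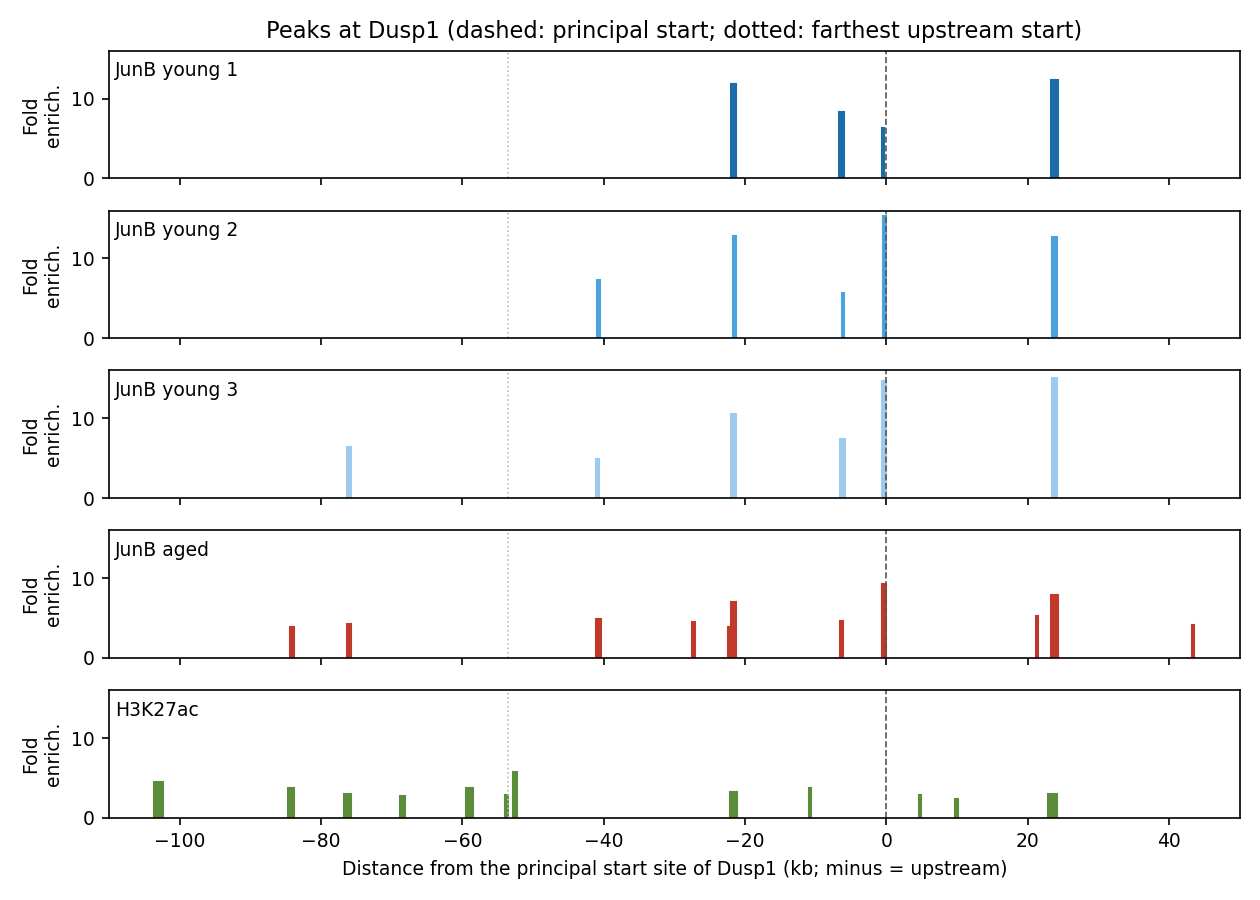
mJunB peaks of the 4 libraries and H3K27ac peaks at Dusp1, each drawn at its position in kb from the principal start (minus is upstream) with its fold enrichment as height on 1 scale from 0. The 4 positions shared by all mJunB libraries line up, the aged lane has 11 peaks, and the H3K27ac lane is empty at the promoter.

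Dusp5 (ENSMUSG00000034765.6, chromosome 19) encodes a nuclear phosphatase specific for ERK. Its shared region was distal, 23567 bp downstream of the TSS and beyond the gene (chr19:53552676-53553012), with fold enrichments of 11.9, 12.6 and 14.9 in the young libraries, against 8.37 in the aged one. The 3 young values were close to each other (13.1 ± 1.59, mean ± SD, n = 3) and the aged value lay below all of them. An H3K27ac peak overlapped it (−log10 p 7.93), the summits lay within 58 bp of each other, and an AP-1 site was 144 bp from the median summit. The promoter peak of Dusp5, 63 bp upstream of the TSS, was found in the aged library alone, at a fold enrichment of 4.38, and had no H3K27ac over it.

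Dusp4 (ENSMUSG00000031530.6, chromosome 8), another nuclear phosphatase of MAP kinases, had 3 regions, each in 1 library. The promoter peaks at 2806 bp in young replicate 1 and at 2113 bp in the aged library, both upstream, did not overlap, so Dusp4 counted as bound at the promoter in both ages at different places. The first had a −log10 p of 4.63, in the lowest 8.17% of its library, and the second 6.75. The third peak, in an intron 8067 bp downstream, had a −log10 p of 4.07 in the aged library and overlapped an H3K27ac peak.

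Dusp6 (ENSMUSG00000019960.8, chromosome 10) encodes the cytoplasmic phosphatase of ERK and is a common readout of FGF and ERK activity. Its 3 regions were held by the aged library alone, at 1126, 25561 and 36330 bp upstream, with fold enrichments of 3.96, 4.13 and 4.67. All 3 were below the median aged peak by −log10 p, at the percentiles 17.9, 28.2 and 41. The promoter region was overlapped by an H3K27ac peak that was among the stronger ones of its list (−log10 p 22.7, above 89.3% of H3K27ac peaks). No young library had a peak within 50 kb of Dusp6, and the nearest young peak was 131916 bp from a TSS.

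Dusp10 (ENSMUSG00000039384.8, chromosome 1) encodes a phosphatase that acts on JNK and p38 rather than ERK. A peak covered its principal TSS, over a UTR exon, in young replicate 2 (fold enrichment 5.48) and in the aged library (4.44), with an H3K27ac peak across it. The intronic region at 7455 bp was held by young replicates 1 and 2 and the aged library, at 5.95, 8.73 and 6.53, also under H3K27ac. Young replicate 3, the shortest list, had no peak within 50 kb of this gene. A region 17062 bp downstream was held by young replicates 1 and 2 (5.56 and 5.32), and a further one at 42241 bp by the aged library (5.11), neither with H3K27ac.

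The window cut off 1 strong region of Dusp10. At 50113 bp downstream, just outside it, a region was held by all 4 mJunB libraries, with −log10 p of 17.7, 43.1 and 23.1 in the young libraries, against 12.3 in the aged one, and no H3K27ac peak. It was the region outside the window that lay nearest to the limit. A second, 57974 bp downstream of Spry4, was held by young replicates 1 and 2 and the aged library, and 2 others up to 60 kb, at Dusp1 and Spred2, by the aged library alone. At the limit of 3 kb, the nearest region inside was the Dusp4 peak at 2806 bp and the nearest outside the aged peak of Spred2 at 4013 bp.

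The Sprouty genes had no mJunB peak within 3 kb. Spry1 (ENSMUSG00000037211.12, chromosome 3) had a single region, 37530 bp upstream, held by young replicates 2 and 3 and by neither young replicate 1 nor the aged library. Its peaks were well above the median of their lists in young replicate 2 (fold enrichment 11.6, −log10 p 27) and near it in young replicate 3 (8.54, −log10 p 13.6). The region lay nearer to Spata5 (28514 bp) than to Spry1. All 5 H3K27ac peaks of Spry1 were distal, from 13699 to 46521 bp away, and none overlapped mJunB.

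Spry2 (ENSMUSG00000022114.5, chromosome 14, minus strand) had its shared region 5660 bp downstream of the TSS, past the annotated end of the gene (chr14:105890796-105891159). Fold enrichments were 7.73, 8.17 and 7.29 in the young libraries (7.73 ± 0.441, mean ± SD, n = 3) and 6.16 in the aged one, below each of them. The young libraries varied least here of the 8 shared regions, and the summits lay within 58 bp of each other. No H3K27ac peak overlapped it, the nearest being 4750 bp away. In contrast, a pair of adjacent regions 25713 and 26130 bp upstream, 1 from young replicate 2 and 1 from young replicate 1, lay under the same H3K27ac peak, and 2 H3K27ac peaks stood within 3 kb of the TSS with no mJunB.

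Spry4 (ENSMUSG00000024427.7, chromosome 18, minus strand) had 1 region, a weak peak of the aged library 4257 bp upstream with a fold enrichment of 3.54. It lay at the 5.19th percentile of the aged list by −log10 p. Its promoter nevertheless carried a strong H3K27ac peak, 45 bp from the TSS (−log10 p 25.9, above 93% of the list), and 5 distal ones.

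Spred1 (ENSMUSG00000027351.14, chromosome 2) encodes a membrane-associated inhibitor that brings neurofibromin to RAS. Its shared region lay 40859 bp upstream (chr2:117079604-117080515), where the strongest peak of each library had a fold enrichment of 7.42, 5.84 and 6.21 in the young libraries, against 6.13 in the aged one. The aged value fell within the young range (6.49 ± 0.824, mean ± SD, n = 3). Young replicate 1 had 2 peaks there, and the 5 summits spread over 616 bp, the widest spread of the shared regions. It lay under an H3K27ac peak with a −log10 p of 21.8.

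The promoter peak of Spred1, 616 bp upstream of its TSS, was held by the aged library alone. With a fold enrichment of 6.82 and a −log10 p of 11.8 it stood above 81.3% of aged peaks and was the strongest of the 17 aged-alone peaks at the 10 genes. An H3K27ac peak overlapped it (−log10 p 7.53). Spred1 had 2 other aged-alone peaks, 11438 bp upstream and, over coding sequence, 31347 bp downstream (fold enrichments 4.09 and 5.19), and beside the latter a peak of young replicate 1 (4.98) that it did not touch.

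Spred2 (ENSMUSG00000045671.17, chromosome 11), the related inhibitor, was the other gene bound at the promoter in all 4 libraries. The region lay in an intron 1244 bp downstream of the TSS (chr11:19925686-19926493), with fold enrichments of 5.32, 6.25 and 5.38 in the young libraries (5.65 ± 0.523, mean ± SD, n = 3) and 5.24 in the aged one. The aged value was the lowest but lay within 1 SD of the young mean. By −log10 p the peaks of young replicates 1, 2 and 3 stood above 53.5%, 22.6% and 4.94% of their lists. The aged peak stood above 66.6% of its own. When each list was reduced to an equal number of its strongest peaks, young replicate 1 and the aged library no longer held the region. Its presence in all 4 libraries therefore depended on the full lists. The summits spread over 431 bp, and the region was not overlapped by H3K27ac. Both other regions, an aged peak 4080 bp upstream (3.92) and a peak of young replicate 1 at 62283 bp downstream of the principal start (5.81), did overlap it.

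Across the 8 shared regions, the aged fold enrichment lay below every young value in 6, the exceptions being the Dusp1 promoter and the Spred1 upstream region. Over all 1928 regions held by the 4 libraries near protein-coding genes, 60.8% had the aged value lowest, so lower values in the aged library were common everywhere. The median fold enrichment of a list was 5.2, 7.74 and 8.11 in young replicates 1, 2 and 3, against 4.93 in the aged library, and each fold is relative to the background of its own library. The part of these library differences in the lower aged values at the 10 genes was not tested.

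**Figure D4:**
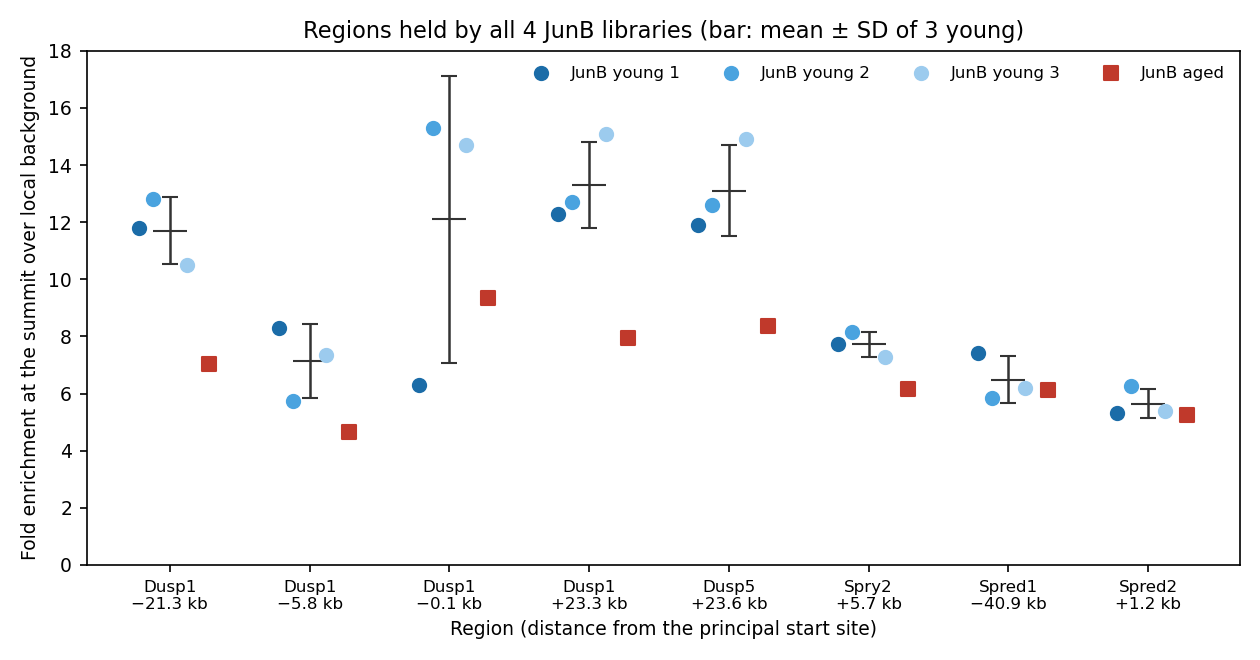
Fold enrichment at the summit (over the local background of the same library) at the 8 regions held by all 4 mJunB libraries, with 1 circle per young library, a red square for the aged library and bars for the mean ± SD of the 3 young libraries. The aged square lies below all young circles except at the Dusp1 promoter, where it lies between 6.29 and 14.7, and at Spred1, where it lies between 5.84 and 6.21.

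At the 10 genes the aged-alone peaks were weaker than the aged peaks in shared regions. No such comparison over all aged peaks is given, so this is not shown to be particular to these genes. The grouping also depends on strength. A shared region needs a −log10 p of at least 5.33 and 5.22 in young replicates 2 and 3, while the aged list reached 3.01. The ordering is therefore no separate result. The 8 aged peaks in shared regions had a median fold enrichment of 6.59 (4.66 to 9.33) and a median percentile of 82.2 by −log10 p in their own list, and the 17 aged-alone peaks had 4.15 (3.49 to 6.82) and a median percentile of 30.6. Their ranges overlapped, and the highest of the aged-alone peaks by both measures were the Spred1 promoter peak and 1 peak 21153 bp downstream of Dusp1 (fold enrichment 5.2, percentile 78.9). Keeping only peaks with a −log10 p of at least 5.33, the level that all 4 lists reach, left 10 aged-alone regions. Of the 4 aged-alone promoter peaks, those of Dusp4, Dusp5 and Spred1 passed it, with −log10 p of 6.75, 5.77 and 11.8, and that of Dusp6 did not, with 5.11.

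**Figure D5:**
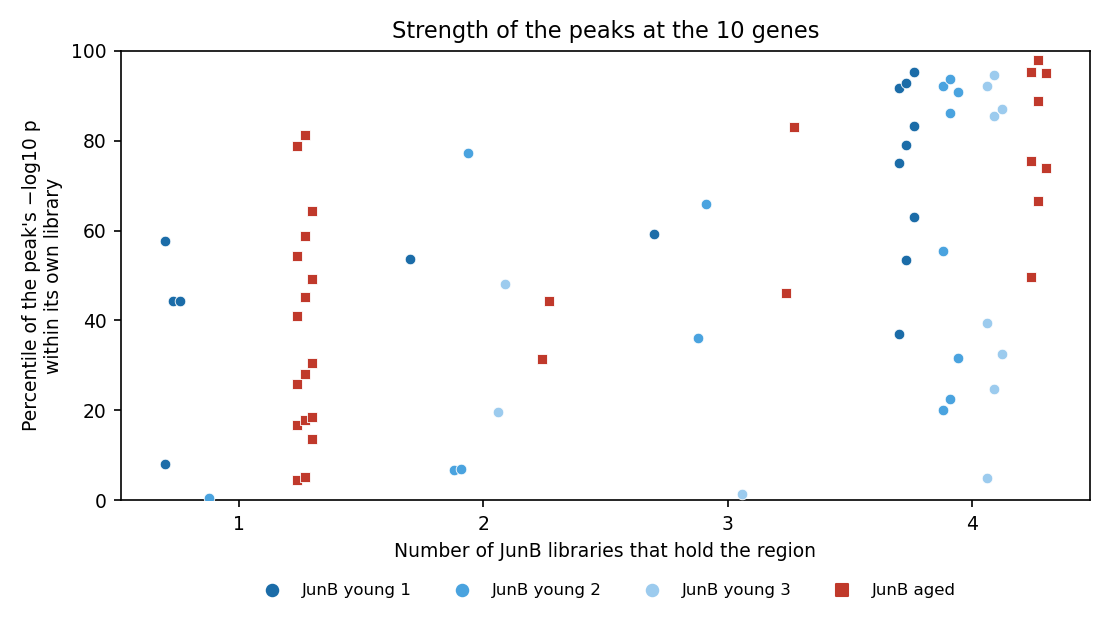
Percentile of each mJunB peak at the 10 genes by −log10 p within its own library, grouped by the number of libraries that hold its region and coloured by library. Aged peaks in regions held by all 4 libraries lie from 49.7 to 98, and those in regions of the aged library alone from 4.51 to 81.3.

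Most regions of the feedback genes were distal, with 8 of 36 within 3 kb of a TSS of the member itself (22.2%, interval 10.1 to 39.2). Of the regions near all protein-coding genes, 42.4% lay within 3 kb of any protein-coding TSS, which is a wider count. H3K27ac overlapped 3 of the 8 promoter regions, those of Dusp6, Dusp10 and Spred1, against 65.8% of all promoter regions, with an interval of 8.52 to 75.5% that includes the background. Of the 28 distal regions 13 were overlapped, against 36.4% of all regions from 3 to 50 kb (46.4%, interval 27.5 to 66.1), 1 of them lying 1999 bp from a start of Ergic1. Among the shared regions 4 of 8 lay under H3K27ac, against 70.7%, with an interval of 15.7 to 84.3%. The H3K27ac intervals all included the background. Member regions were split at 3 kb from the member's own starts, but the regions of the background from any protein-coding start. Although its interval lay below 42.4%, the share within 3 kb therefore cannot tell a departure from the background. Of the 36 regions, 11 came from the single locus of Dusp1.

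Read from the mark, the 10 genes had 49 H3K27ac peaks within 50 kb, of which 15 were overlapped by mJunB in at least 1 library (30.6%, interval 18.3 to 45.4, against 22% of the H3K27ac peaks near all protein-coding genes). A promoter peak of H3K27ac was found at 7 of 10 members, against 49.8% of all genes, and at 5 of 10 counted from principal starts, against 48%. Dusp6, Dusp10, Spry2, Spry4 and Spred1 had it by both counts. Dusp4, Dusp5 and Spry1 had none by either count, and Dusp1 and Spred2 only near other annotated starts. Spry2 and Spry4 were the genes with promoter H3K27ac and no promoter mJunB in any library, and Dusp4 and Dusp5 the reverse. Counted from principal starts, Dusp1 and Spred2 were also the reverse, with promoter mJunB in every library.

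An AP-1 site was found somewhere in 13 of the 36 regions, against 26.7% of all regions near protein-coding genes. It was found in 4 of the 8 shared ones, for which no share over all shared regions is given. In the 151 bp around the median summit there were 3 of 36, against 6.94%, and for the CArG box 1 of 36, against 0.686%, and for the CRE 0 of 36, against 0.56%. Among 32851 RefSeq promoters of 300 bases in the mouse genome, 5.2% held an AP-1 site. These promoter windows are longer than the windows around the summits, so the shares are not like for like. By library, an AP-1 site lay within 50 bp of the summit in 1 of 15, 1 of 14, 0 of 11 and 1 of 29 member peaks of young replicates 1, 2 and 3 and the aged library, against 5.59%, 6.47%, 7.74% and 3.81% of all peaks. Summits of the member peaks therefore held AP-1 letters about as seldom as summits elsewhere. The peak of young replicate 2 at Spred2 was one of the 3, and the other 2 are printed here as the 101 bases around their summits, with the site in capitals.
Spry2, 26130 bp upstream, young replicate 1, chr14:105922961-105923061: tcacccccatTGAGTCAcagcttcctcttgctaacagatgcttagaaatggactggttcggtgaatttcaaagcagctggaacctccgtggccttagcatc
Dusp10, 42241 bp downstream, aged library, chr1:184076804-184076904: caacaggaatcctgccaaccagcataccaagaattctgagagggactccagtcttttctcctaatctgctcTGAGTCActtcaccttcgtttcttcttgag

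Other genes of the pathways, from 4 lists, were counted in the same way, beside 11.1%, 7.79%, 5.95% and 23.9% of all protein-coding genes with a promoter peak in the same libraries, the 3 young ones first and the aged one last. Of 9 other feedback regulators 4, 3 and 2 had a promoter peak in young replicates 1, 2 and 3, against 5 aged, and Il17rd, which encodes an inhibitor of FGF receptor signalling, had one in all 4. Its fold enrichments, 18.8, 15.3 and 14.8 in the young libraries, against 10.7 in the aged one, were each at or above those of the Dusp1 promoter. Of 19 genes of the RAS-ERK cascade the counts were 4, 4, 2 and 8, with the scaffold gene Ksr1 in all 4 libraries (8.67, 6.75 and 7.35, and 6.35 in the aged library). Of 14 genes of the JNK and p38 cascade they were 4, 2, 2 and 5, with the stress kinase gene Map3k5 in all 4 (9.92, 9.08 and 10.1, and 5.24).

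Transcription factor genes that ERK induces, 11 in the list, had promoter peaks at 5, 3 and 1 in the young libraries, against 6 in the aged one. Etv5, a target of FGF signalling, had one in all 4, with fold enrichments of 4.98, 8.87 and 8.44 in the young libraries, against 6.43 in the aged one. In every list, then, the aged library had the highest count, as it had for all protein-coding genes. Promoter H3K27ac was found at 18 of the 19 RAS-ERK genes, 8 of the 14 JNK and p38 genes, 8 of the 11 transcription factor genes and 5 of the 9 other feedback regulators, beside 49.8% of all protein-coding genes. Within 50 kb, 6 of the 11 transcription factor genes had a region held by all 4 mJunB libraries, and so did 1 of 9, 4 of 19 and 3 of 14 genes of the other lists, in the order given, beside 17.2% of all protein-coding genes.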

How the data were processed

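The deposited peak lists of 4 mJunB libraries (3 young, 1 aged) and 1 H3K27ac library were used. Per the methods and the labels, the authors used Bowtie2 with the mm10 genome, discarded redundant reads, and ran MACS2 on every library separately. The tool versions and a control library are not given in the sources used here. Each deposited peak carries a fold enrichment, a ratio of the summit to the local background of its library, and a −log10 p and −log10 q, which were used to rank or filter peaks. The deposited score was not used.

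Distances ran from the nearest edge of a peak to any TSS of a gene in GENCODE M21, and peaks overlapping by at least 1 bp or touching were merged. The member genes and pathway lists were chosen with earlier results of these data known. All 10 members were named, with the pathway genes bound within 3 kb in all 4 libraries and the nearest neighbours of regions. Spry3 was not matched by name. Sequences were read from the RefSeq copy of GRCm38.p6, and both strands were searched for motifs. No peak lay past a chromosome end of it. No test was made between groups, and shares carry exact binomial intervals. Alternatives covered the windows, start sites, thresholds, equal numbers of peaks, merging, H3K27ac rules, motifs and leaving out each young library. Python 3.11.15, numpy 2.4.6, scipy 1.17.1 and matplotlib 3.10.9 were used. Overlap, distance and merging were tested on simulated data with bedtools 2.31.1 as the reference, and the motif search on planted sites.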

Additional observations from a re-analysis of the deposited data

How the results depend on the processing

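Of 139 alternative values, 109 lay within 1.5 times the reported count and 30 beyond. With a promoter window of 1 kb, 4 members had an aged promoter peak, 2 one in any young library and 1 in all libraries. With the 3863 strongest peaks of each list these counts were 2, 2 and 1; 5 members had an aged peak within 50 kb, and 14 regions were left, 2 of them of the aged library alone, with 1 promoter and 6 distal regions over H3K27ac. A window of 10 kb left 14 regions (4 shared, 7 aged alone, 1 young alone), 5 members with a young peak and 3 with a shared region, and 25 kb left 23 regions (10 aged alone, 2 young alone). A common −log10 p left 10 aged-alone regions. The stronger H3K27ac peaks overlapped 7 distal regions. Leaving out a young library left 3 to 7 young-alone regions, the fewest without young replicate 1. AP-1 sites within 100 bp of the summit were in 2, 2 and 2 member peaks of young replicates 1 and 2 and the aged library, and anywhere in the peak in 7, 3, 3 and 8 of young replicates 1, 2 and 3 and the aged library. Starts of principal transcripts alone were added after seeing the data. No paired analysis was possible with a single aged library, whose label gives no replicate number, and no test was made. Peaks carry no read counts, so a missing peak is not shown to be missing binding at any known depth.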
